A study of Homo sapiens with 38 samples.

Results

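The lac repressor LacI of Escherichia coli binds its own operator, for which human DNA holds no cognate site, and the study fused it to the N-terminal disordered region of Sp1 in place of the Sp1 DNA binding domain. The fusion (Sp1 IDR-LacI, given in the labels as the Sp1 activation domain, Sp1 AD-LacI) and LacI alone were profiled by CUT&RUN with mouse anti-FLAG. All peaks of these lines' mouse anti-FLAG lists were taken, which were 228 peaks for Sp1 IDR-LacI and 225 for LacI, or 453 of the 27085 peaks in the 19 lists of the series. The comparison asks how the genomic positions in these lists differ. With 1 list per line, a difference cannot be assigned to the disordered region alone.

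In CUT&RUN, an antibody directs a nuclease to a protein in permeabilised cells, and the DNA that is cut free next to it is sequenced. All lines were made from U-2 OS, an osteosarcoma line, in which endogenous SP1 carries a V5-Halo tag, and the knock-in line is a single clone. Both lines therefore also express tagged endogenous Sp1. A doxycycline-inducible transgene (LacI, or Sp1 AD-LacI) stood at the AAVS1 safe harbor locus. Cells of both lines received 1 μg/ml doxycycline for 36 h with fluorescent Halo and SNAP ligands, were sorted for transgene expression, and were induced for another 36 h. Each line had 2 replicates, from which the authors made 1 list, so neither list has a replicate of its own. Comparison lists came from the same antibody in the knock-in line without a transgene (CTRL), in lines with a nuclear SNAP tag (SNAP-NLS), with Sp1 carrying a mutant DNA binding domain (Sp1 DBD Mutant) and with full-length Sp1 (Sp1 WT). The deposited lists give no read numbers, so the depth behind each list was not analysed here, and peak lists hold no expression that could be used to check the cell line.

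Sp1 is a zinc finger factor that binds GC-rich boxes in promoters. Satellite DNA is made of short units repeated in tandem over long arrays, mostly at and beside centromeres. Alpha satellite is the DNA on which centromeres are built, and its units are often arranged as pairs. Human satellites 2 and 3 derive from the pentamer CATTC, in diverged and in nearly pure form, and lie beside the centromeres of a few chromosomes. Reads from such arrays map to many places, and the assembly represents the arrays incompletely, so that a position within an array stands for a kind of sequence rather than for one locus.

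The following sequences show the kinds of DNA under the peaks. Each is 150 bases of hg38, plus strand, centred on the summit of the highest-ranked peak of its kind. The first pair are the highest-ranked peaks of the lists, both in alpha satellite, with capitals for runs of 8 or more bases that the windows share.
Sp1 IDR-LacI, chr10:41405808-41405957: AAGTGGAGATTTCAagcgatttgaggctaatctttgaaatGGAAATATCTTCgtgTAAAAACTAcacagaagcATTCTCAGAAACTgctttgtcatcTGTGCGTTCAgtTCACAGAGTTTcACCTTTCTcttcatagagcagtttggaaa
LacI, chr1:124084408-124084557: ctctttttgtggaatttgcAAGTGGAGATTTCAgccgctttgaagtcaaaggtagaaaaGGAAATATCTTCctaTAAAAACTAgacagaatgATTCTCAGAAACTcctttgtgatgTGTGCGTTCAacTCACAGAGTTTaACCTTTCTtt
These windows come from different chromosomes, and 77 of the 150 bases of each lay in shared runs. The next are diverged satellite outside and inside a cluster on chromosome 1, and CATTC satellite, all of Sp1 IDR-LacI, with capitals for CATTC or its complement GAATG.
Diverged satellite, chr1_KI270709v1_random:5543-5692: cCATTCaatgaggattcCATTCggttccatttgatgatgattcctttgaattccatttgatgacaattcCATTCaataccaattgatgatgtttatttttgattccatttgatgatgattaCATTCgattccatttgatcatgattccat
Chromosome 1 cluster, chr1:143232406-143232555: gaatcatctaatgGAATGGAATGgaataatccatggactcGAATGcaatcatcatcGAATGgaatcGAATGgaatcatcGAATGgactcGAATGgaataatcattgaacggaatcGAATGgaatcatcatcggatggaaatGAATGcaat
CATTC satellite, chr4:49094893-49095042: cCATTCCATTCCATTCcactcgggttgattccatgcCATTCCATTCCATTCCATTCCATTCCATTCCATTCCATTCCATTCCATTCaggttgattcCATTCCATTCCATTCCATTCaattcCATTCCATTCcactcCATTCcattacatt
The pentamer covered 20, 45 and 100 of the 150 bases in these windows. The last pair are an AT-rich satellite with a unit of 42 bases and the single peak in a gene, both of Sp1 IDR-LacI, with the first unit in capitals.
AT-rich satellite, chrUn_KI270333v1:1564-1713: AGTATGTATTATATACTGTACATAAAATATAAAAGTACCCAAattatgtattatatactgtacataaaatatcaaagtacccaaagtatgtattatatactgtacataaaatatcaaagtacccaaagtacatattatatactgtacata
CLPTM1L, chr5:1327193-1327342: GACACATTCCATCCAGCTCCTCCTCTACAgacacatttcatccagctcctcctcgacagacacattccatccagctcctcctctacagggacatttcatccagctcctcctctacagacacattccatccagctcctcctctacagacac
The unit in CLPTM1L was 29 bases long.

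Every peak of both lists lay in tandem repeats. In a window of 2000 bp around each summit, the sequence was compared with itself at shifts of 5 to 400 bases. All 228 Sp1 IDR-LacI peaks and all 225 LacI peaks reached a self-match of 40% or more at their best shift, with lowest values of 43.8% and 42.2%. The same held for 294 of 295 SNAP-NLS peaks, all 94 of Sp1 DBD Mutant and 21 of 22 of CTRL, but for 159 of 5151 Sp1 WT peaks (3.09%, 95% Wilson interval 2.65–3.60%). The limit of 40% was chosen after the values were seen, and these shares carry no test.

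By a second measure, at least 50% of the 31-base words around the summit occurred more than once in the assembly. This held for 213 of 228 Sp1 IDR-LacI peaks (93.4%, 89.4–96.0%) and 213 of 225 LacI peaks (94.7%, 90.9–96.9%), which did not pass the test (Fisher's exact test, adjusted p = 1.00). All Fisher tests of shares were two-sided and adjusted over 6 shares, and they set 1 list against another, since peaks are not replicates of a line. The number of copies had a median of 48.0 for the words of a Sp1 IDR-LacI peak and 606 for LacI. With words that occur more than 10 times, the shares were 67.1% and 80.0% (Fisher's exact test, adjusted p = 0.00606), and with at least 90% repeated words they were 66.7% and 77.3% (adjusted p = 0.0367). LacI peaks thus lay more often in highly repeated words, by limits that the main measure does not set.

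Counted by peaks, the lists held the kinds of satellite in different shares. Peaks were assigned to a class by their best shift, a grouping made after the data were seen and given here without a test. Any best shift that was a multiple of 5 bases and not an alpha satellite shift was named CATTC satellite. In that class, CATTC or GAATG covered a median of 59.7% of bases around Sp1 IDR-LacI summits and 57.2% around LacI summits. It covered 0% for the 21 Sp1 WT peaks so named, so for Sp1 WT the name does not describe the sequence. Alpha satellite held 84 Sp1 IDR-LacI peaks (36.8%, 30.8–43.3%) and 157 LacI peaks (69.8%, 63.5–75.4%). Diverged satellite with a unit of 23 to 26 bases held 87 Sp1 IDR-LacI peaks (38.2%, 32.1–44.6%) and 26 LacI peaks (11.6%, 8.01–16.4%). CATTC satellite was close in the lists, with 43 (18.9%, 14.3–24.4%) and 37 peaks (16.4%, 12.2–21.8%). The 42-base satellite held 13 and 5 peaks, and the 1 remaining Sp1 IDR-LacI peak was that in CLPTM1L. The shares of Sp1 IDR-LacI moved when peaks within 10 kb were merged and each region took its most common class, an alternative chosen after the data were seen. Diverged satellite then held 10 of 114 Sp1 IDR-LacI regions (8.77%, 4.83–15.4%) and 5 of 158 LacI regions (3.16%, 1.36–7.19%), with intervals that overlap. Alpha satellite held 78 (68.4%, 59.4–76.2%) and 134 regions (84.8%, 78.4–89.6%) and was then the most common class in both lists.

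The SNAP-NLS list, which has neither LacI nor Sp1 sequence in its transgene, stood between them, with 52.2% in alpha satellite (46.5–57.8%) and 25.1% in diverged satellite (20.5–30.3%). The Sp1 DBD Mutant list had 54.3% and 29.8%. In the CTRL list, where no transgene was present, 10 of 22 peaks (45.5%, 26.9–65.3%) were in diverged satellite and 3 in alpha satellite. Diverged satellite thus took a larger share in these 3 lists than in LacI as well, which was not tested.

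**Figure D1:**
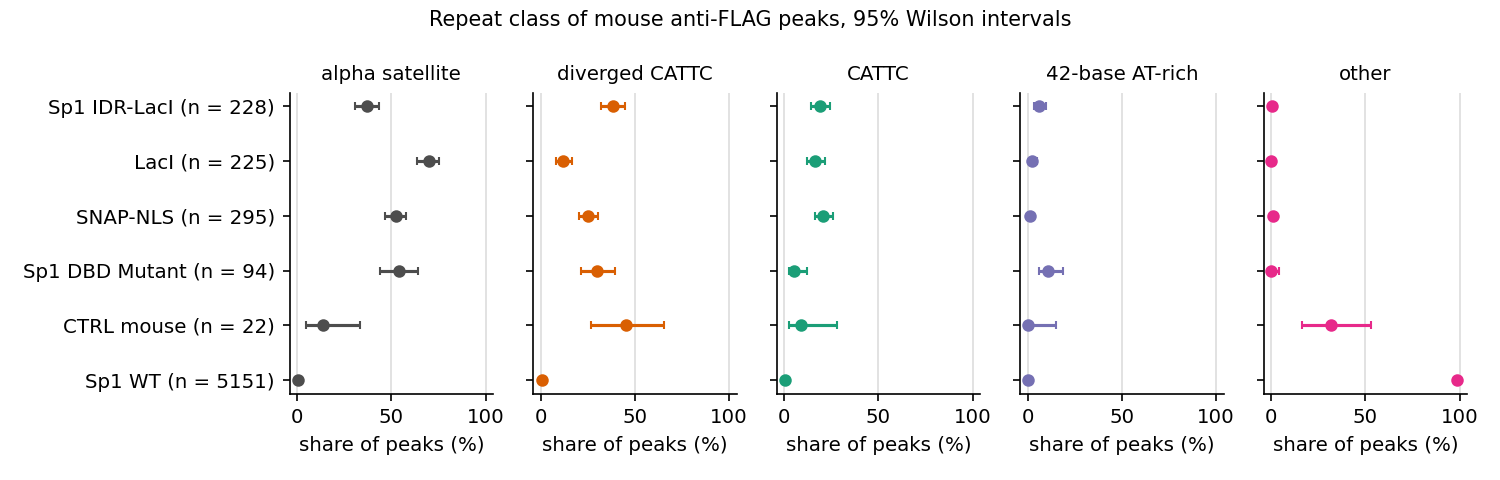
Share of peaks (%) in each repeat class for 6 mouse anti-FLAG lists, with points for the share and bars for 95% Wilson intervals. Alpha satellite held 36.8% of Sp1 IDR-LacI and 69.8% of LacI peaks, diverged satellite (diverged CATTC) 38.2% and 11.6%, and 98.4% of Sp1 WT peaks were in no class. The 21 Sp1 WT peaks in the CATTC panel were placed there by shift alone, with a median CATTC content of 0%.

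A measure of alpha satellite by shifts of about 1 unit alone, with a self-match of at least 50%, took in 81 Sp1 IDR-LacI peaks (35.5%, 29.6–41.9%) and 102 LacI peaks (45.3%, 39.0–51.9%), a difference that did not pass the test after adjustment (p = 0.0355, adjusted p = 0.107, Fisher's exact test). This measure was not particular to alpha satellite: 42 of the 81 and 37 of the 102 were CATTC peaks, whose pentamer also repeats at such a shift. It also left out arrays in which only pairs of units match, at shifts near 340 bases, which was the most common best shift of alpha peaks in both lists (48 of 84 and 80 of 157). At a limit of 40% the shares were 64.5% and 89.3% (Fisher's exact test, adjusted p = 1.3e-09), and at 60% they were 17.5% and 17.8%. At 50% with peaks within 10 kb merged, they were 45.6% and 47.5% (Fisher's exact test, adjusted p = 0.806). Neighbouring peaks of an array are not independent, and the 40% limit was not applied to merged regions.

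A protein of centromeric chromatin, CENP-B, binds a box in some alpha satellite units. The box, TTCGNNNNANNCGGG on either strand, occurred within 100 bp of the summit in 30 of 84 alpha peaks of Sp1 IDR-LacI (35.7%) and 71 of 157 of LacI (45.2%), and in 1 further peak of each list. Alpha peaks of the comparison lists held it at similar shares, in 65 of 154 for SNAP-NLS (42.2%) and 18 of 51 for Sp1 DBD Mutant (35.3%). Over the chromosomes, 0.876% of windows of the same length held it. The box occurred in 0.136% of all Sp1 WT peaks, of which only 0.194% were alpha satellite. A match to these letters does not show binding.

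In distance to the centromere, LacI peaks were the more central. The largest block of alpha satellite was located on each chromosome, and 205 LacI and 187 Sp1 IDR-LacI peaks lay on chromosomes 1 to 22, X or Y. Of these, 151 LacI peaks (73.7%, 67.2–79.2%) and 79 Sp1 IDR-LacI peaks (42.2%, 35.4–49.4%) lay inside the block. All 205 LacI peaks lay within 5 Mb of it, against 158 Sp1 IDR-LacI peaks (84.5%, 78.6–89.0%). The 26 Sp1 IDR-LacI peaks of 1 cluster on chromosome 1, described below, all lay beyond 5 Mb. Inside the block were 58.1% of SNAP-NLS, 66.7% of Sp1 DBD Mutant and 14.3% of CTRL peaks on these chromosomes. The median distance was 0 kb for LacI and 108 kb for Sp1 IDR-LacI. The peak nearest to the end of a chromosome was that in CLPTM1L, at 1327 kb. These shares were added after the lists were seen and were not tested.

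Sp1 IDR-LacI peaks lay closer to assembly gaps, which lie beside many satellite arrays in hg38. Within 100 kb of a run of at least 1000 unknown bases were 108 of 228 Sp1 IDR-LacI peaks (47.4%, 41.0–53.8%) and 59 of 225 LacI peaks (26.2%, 20.9–32.3%), a difference of 21.1 percentage points (Fisher's exact test, adjusted p = 2.5e-05). Medians were 59.6 kb (n = 196 peaks on a sequence with a gap) and 486 kb (n = 208). The difference went with the class of satellite: 71 of 87 diverged peaks of Sp1 IDR-LacI (81.6%, 72.2–88.4%) and 19 of 26 of LacI (73.1%, 53.9–86.3%) lay that close, but only 10 of 84 (11.9%) and 14 of 157 (8.92%) alpha peaks. The part of class in the difference was not tested. When peaks within 10 kb were merged, which left 114 and 158 regions, the shares were 27.2% and 17.1% and the call was lost (Fisher's exact test, adjusted p = 0.310), and within 1 Mb of a gap they were 79.8% and 77.3% (adjusted p = 1.00).

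**Figure D2:**
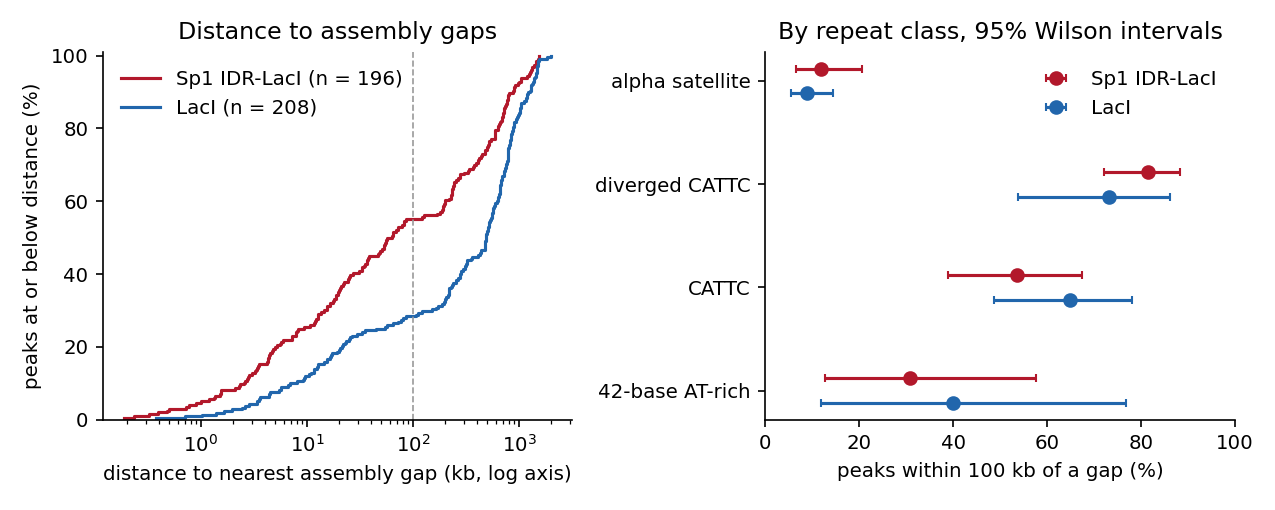
Left, cumulative share (%) of peaks by distance to the nearest assembly gap (kb, log axis) among the peaks on a sequence with a gap, with a dashed line at 100 kb. Right, share (%) of all peaks of each class within 100 kb of a gap, with 95% Wilson intervals, where alpha satellite peaks had 11.9% and 8.92% and diverged satellite (diverged CATTC) peaks 81.6% and 73.1%.

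The peaks were gathered on few chromosomes. Chromosomes 1, 4, 10 and 13 held 133 of 228 Sp1 IDR-LacI peaks (58.3%) and 139 of 225 LacI peaks (61.8%), close to the 59.7% of SNAP-NLS and far from the 18.9% of Sp1 WT. Peaks were found on 37 chromosomes and scaffolds in all, of which 20 held peaks of both lists. Unplaced and unlocalised scaffolds held 41 Sp1 IDR-LacI peaks (18.0%) and 20 LacI peaks (8.89%).

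Of 13 chromosomes with at least 5 peaks, 4 (30.8%) differed in share between the lists by Fisher's exact test adjusted over chromosomes. Chromosome 13 had 11 Sp1 IDR-LacI peaks (4.82%) and 30 LacI peaks (13.3%; Fisher's exact test, adjusted p = 0.0223), and all 41 were alpha satellite between 16252658 and 18025021. Chromosome 16 had 11 and 1 peaks, chromosome 12 had 0 and 7, and chromosome 18 had 0 and 7 (Fisher's exact test, adjusted p = 0.0231 for each). A count of 0 among 228 peaks allows a share of up to 1.32%, for counting error only. Chromosomes 1 (47 and 42 peaks), 4 (28 and 27) and 10 (47 and 40) did not pass the test. With peaks within 10 kb merged, 0 of 12 chromosomes passed, with 2 at an unadjusted p under 0.05. On chromosome 16, 10 of the 11 Sp1 IDR-LacI peaks were in 1 cluster of diverged satellite.

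**Figure D3:**
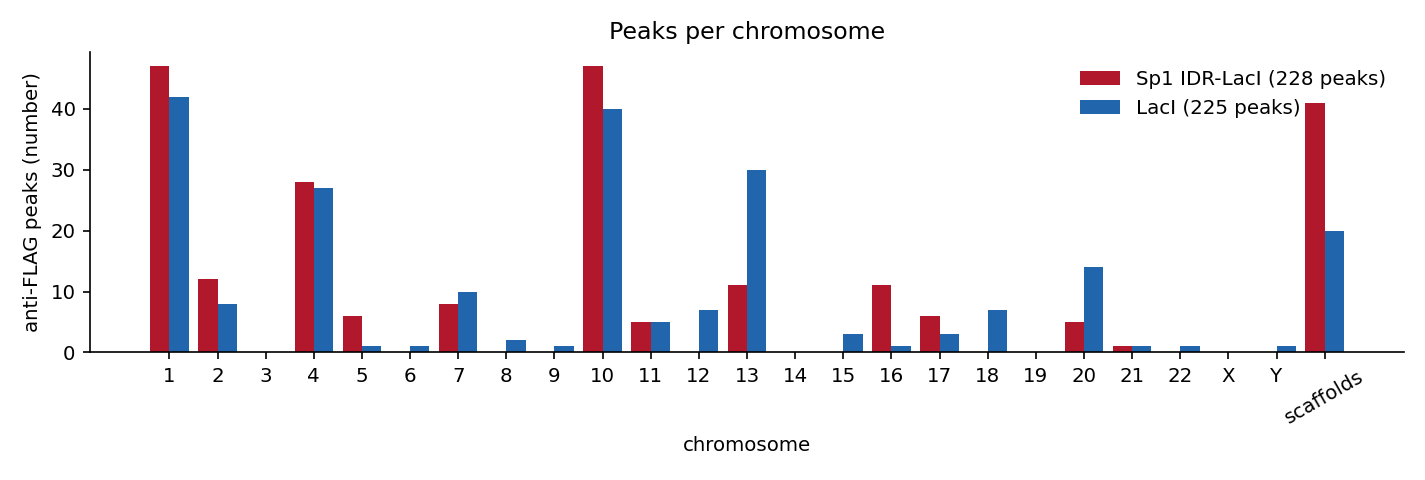
Number of mouse anti-FLAG peaks per chromosome for Sp1 IDR-LacI (228 peaks) and LacI (225 peaks), with all unplaced and unlocalised scaffolds together at the right. Chromosomes 1 and 10 were the fullest in both lists, and chromosome 13 held 11 and 30 peaks.

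Some clusters held peaks of 1 of the lists. The largest that LacI lacked, chr1:143187196-143267553, held 26 Sp1 IDR-LacI peaks and 0 LacI peaks, all in diverged satellite. The region was not empty elsewhere: it held 7 CTRL, 7 SNAP-NLS and 22 Sp1 WT peaks with mouse anti-FLAG, and 19 peaks of CTRL with rabbit anti-FLAG, where no FLAG-tagged protein was present. A cluster of 10 peaks at chr16:34572589-34593646 and one of 5 at chr1:125166260-125183855 were also without LacI peaks, and each held 1 CTRL peak and was in diverged satellite. Another of 5 Sp1 IDR-LacI and 0 LacI peaks, chr5:49611152-49659642, held 3 peaks in alpha satellite. CTRL had 0 peaks there and SNAP-NLS and Sp1 DBD Mutant 1 each, and 1 CTRL peak lay within 10 kb of its edge.

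In the 2 largest of these clusters the replicates were far apart. In the chromosome 1 cluster the median −log10 p was 6.96 in the first-listed replicate of Sp1 IDR-LacI and 25.9 in the second, and in the chromosome 16 cluster 8.03 and 28.5. The CTRL peaks in diverged satellite had medians of 4.39 and 27.2. Which labelled replicate was listed first is not known here. Without the 3 clusters in diverged satellite, that class satellite held 46 of 187 Sp1 IDR-LacI peaks (24.6%), against 11.6% in LacI, which had 0 peaks in them. Without the chromosome 1 cluster alone, the share within 100 kb of a gap was 40.6% against 26.2% (adjusted p = 0.0118, Fisher's exact test).

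Other clusters were held by both lists, in alpha, diverged and CATTC satellite. At chr1:123127593-124768985, in alpha satellite, Sp1 IDR-LacI had 12 peaks and LacI 33. At chr10:41844020-42091573 it had 25 and LacI 20, mostly in diverged satellite. An unlocalised scaffold of chromosome 1 (chr1_KI270709v1_random) had 16 and 7 peaks, and chr4:49091856-49156587, in CATTC satellite, had 16 and 8. SNAP-NLS had 39, 26, 18 and 15 peaks in these 4, while CTRL had 0 in each.

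The same bases were often marked in both lines. Of the Sp1 IDR-LacI peaks, 61 of 228 overlapped a LacI peak by at least 1 bp (26.8%, 21.4–32.9%), and 62 of 225 LacI peaks overlapped a Sp1 IDR-LacI peak (27.6%, 22.1–33.7%). Their summits were a median of 9 bp apart, and 42 of the 61 were within 20 bp. By class, 24 of 84 alpha peaks of Sp1 IDR-LacI were shared (28.6%), 19 of 87 diverged peaks (21.8%) and 16 of 43 CATTC peaks (37.2%). Of the LacI peaks, 24 of 157 alpha (15.3%), 20 of 26 diverged (76.9%, 57.9–89.0%) and 16 of 37 CATTC peaks (43.2%) were shared. The classes differ in size between the lists, which limits the share that can overlap. With peaks merged within 10 kb, the share of Sp1 IDR-LacI was 36.0%, and with midpoints within 10 kb the shares were 51.8% and 42.7%.

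More of each list was shared with SNAP-NLS than with the other, but SNAP-NLS was the longer list, with 295 peaks. A longer list can overlap more peaks, and these shares were not adjusted for length. Of Sp1 IDR-LacI, 85 peaks (37.3%, 31.3–43.7%) overlapped SNAP-NLS, and of LacI 81 (36.0%, 30.0–42.5%). The Sp1 DBD Mutant list, with 94 peaks, overlapped 44 (19.3%) and 51 (22.7%), and the CTRL list, with 22, overlapped 5 and 1. At least 1 of CTRL and SNAP-NLS was overlapped by 89 Sp1 IDR-LacI peaks (39.0%, 32.9–45.5%) and 81 LacI peaks (36.0%, 30.0–42.5%), which did not pass the test (Fisher's exact test, adjusted p = 1.00). In no other mouse anti-FLAG list were 93 of 228 Sp1 IDR-LacI peaks (40.8%) and 109 of 225 LacI peaks (48.4%). Outside the CTRL and SNAP-NLS peaks, the lists shared 20 peaks, which were 14.4% of 139 and 13.9% of 144.

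The Sp1 WT list overlapped 38 Sp1 IDR-LacI peaks (16.7%, 12.4–22%) and 11 LacI peaks (4.89%, 2.75–8.54%). Of the 38, 26 were in diverged satellite, 6 in alpha satellite, 3 in the 42-base satellite, 2 in CATTC satellite and 1 in CLPTM1L. Of the 11, 7 were in diverged and 4 in alpha satellite. Among diverged peaks the shares were close, at 26 of 87 for Sp1 IDR-LacI (29.9%, 21.3–40.2%) and 7 of 26 for LacI (26.9%, 13.7–46.1%). Among alpha peaks they were 6 of 84 (7.14%) and 4 of 157 (2.55%). The part of class in the difference was not tested. Apart from the CLPTM1L peak, the overlap lay in satellite DNA.

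Lists made with anti-V5 held part of these peaks. Mouse anti-V5, which recognises endogenous Sp1 in the Sp1 IDR-LacI line, overlapped 47 of the 228 peaks (20.6%, 15.9–26.3%), and rabbit anti-V5 only 3 (1.32%, 0.448–3.80%), although their lists held 1739 and 2126 peaks. Of the 47, 20 were in diverged and 19 in alpha satellite. Rabbit anti-V5 in the Sp1 WT line overlapped 71 (31.1%, 25.5–37.4%), of which 43 were in diverged satellite and 22 in the chromosome 1 cluster. LacI peaks were overlapped 18 times by mouse anti-V5 of the Sp1 IDR-LacI line and 8 times by rabbit anti-V5 of Sp1 WT. Satellite peaks were thus met with antibodies to either tag and from either species.

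Over the 10 mouse anti-FLAG lists, peaks within 10 kb were merged, and 215 regions held a peak of Sp1 IDR-LacI or LacI. Sp1 IDR-LacI had peaks in 108 of them and LacI in 153, with 46 holding both. A peak of SNAP-NLS, Sp1 DBD Mutant or CTRL lay in 98, and 23 regions recurred in 5 or more lists. The regions in most lists were chr10:42066302-42105010 (19 Sp1 IDR-LacI and 11 LacI peaks), the scaffold chr1_KI270709v1_random from 29 to 17643 (16 and 7), chr2:90381038-90402338 (7 and 6) and chr10:41843697-41869685 (3 and 3), each in 9 lists and in diverged satellite. CTRL was the list they lacked. The next were chr10:40442366-40448418 (3 and 1 peaks), chr1:122808067-122809678 (1 and 2) and chr10:39965104-39968447 (1 and 2), each in 8 lists and in alpha satellite. LacI alone held 107 regions and Sp1 IDR-LacI alone 62.

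LacI peaks were the narrower and had the lower −log10 p in both replicates, in a design too small to pass a test. Median widths were 190.0 and 208 bp in the replicates of Sp1 IDR-LacI and 164 and 173 bp in those of LacI, without overlap, a difference of 30.5 bp in their means. The exact permutation test (two-sided, n = 2 against 2) gave p = 0.333, which is the smallest it allows. Median −log10 p was 10.4 and 13.2 in Sp1 IDR-LacI and 8.28 and 8.80 in LacI, also without overlap (exact permutation test, p = 0.333). Both replicates of Sp1 IDR-LacI were above both of LacI. The peaks were kept because the replicates agreed, so the replicate medians are not independent of each other. The peaks kept in the lines also differed in their range of IDR, given below.

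Width varied with the class. In the merged peaks, alpha satellite had medians of 162 bp in Sp1 IDR-LacI and 191 bp in LacI. Diverged satellite had 340.0 and 266 bp, CATTC satellite 277 and 301 bp, and the 42-base satellite 579 and 407 bp. Alpha peaks of Sp1 IDR-LacI were thus narrower than those of LacI in the merged peaks and in both replicates, with medians of 144 and 148 bp against 156 and 160.0 bp. CATTC peaks went either way by replicate, with 222 and 234 bp against 237 and 227 bp. The part of class in the difference in width was not tested. At 500 bp or more were 36 of 228 Sp1 IDR-LacI peaks (15.8%, 11.6–21.1%) and 10 of 225 LacI peaks (4.44%, 2.43–7.99%), against 89.8% of Sp1 WT peaks. The share was 22.7% in CTRL (5 of 22, 10.1–43.4%), 6.44% in SNAP-NLS and 8.51% in Sp1 DBD Mutant. The widest was a Sp1 IDR-LacI peak of 1934 bp at chrUn_KI270467v1:1946-3879, in the 42-base satellite.

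**Figure D4:**
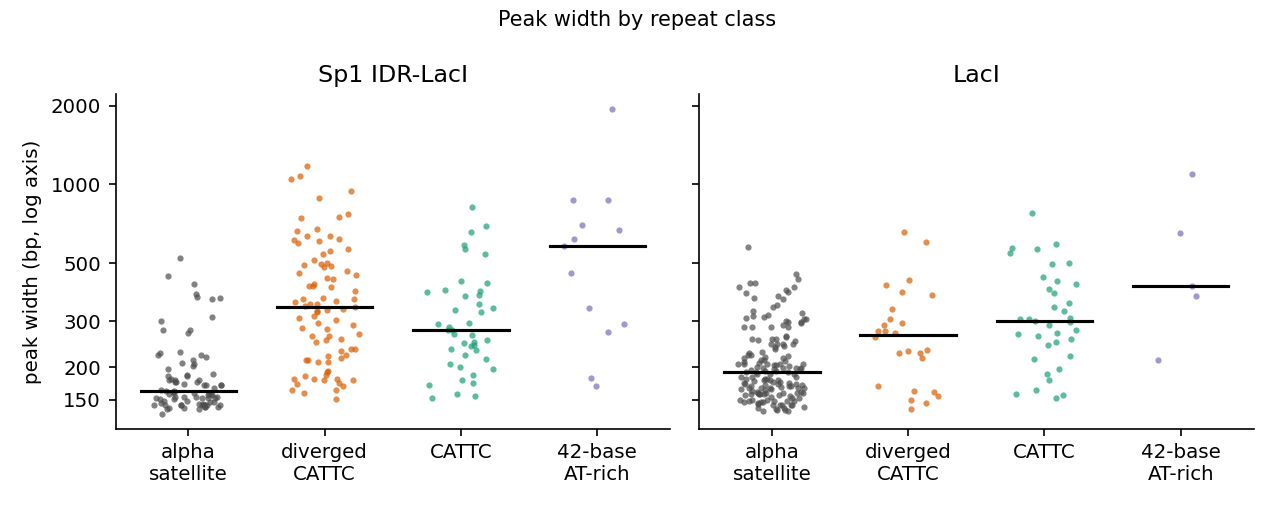
Width of each merged peak (bp, log axis) by repeat class, with points for peaks (spread sideways at random) and black lines for medians, leaving out the CLPTM1L peak. Alpha satellite peaks had medians of 162 and 191 bp and diverged satellite (diverged CATTC) peaks 340.0 and 266 bp.

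Replicates differed by class as well. In alpha satellite the second-listed replicate was the stronger in 33 of 84 Sp1 IDR-LacI peaks (39.3%) and 62 of 157 LacI peaks (39.5%), with medians of 13 and 11.6 and of 8.87 and 7.92. In diverged satellite it was the stronger in 64 of 87 (73.6%) and 16 of 26 (61.5%), with medians of 9.28 and 16.8 and of 8.02 and 11.4. In CATTC satellite it was the stronger in 33 of 43 (76.7%) and 29 of 37 (78.4%). In both lines, the first-listed replicate was thus mostly the stronger in alpha satellite and the second in the other classes. The irreproducible discovery rate (IDR), by which the authors kept peaks found in both replicates, ran from 9.3e-04 to 0.00421 in Sp1 IDR-LacI and from 0.0519 to 0.0987 in LacI.

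**Figure D5:**
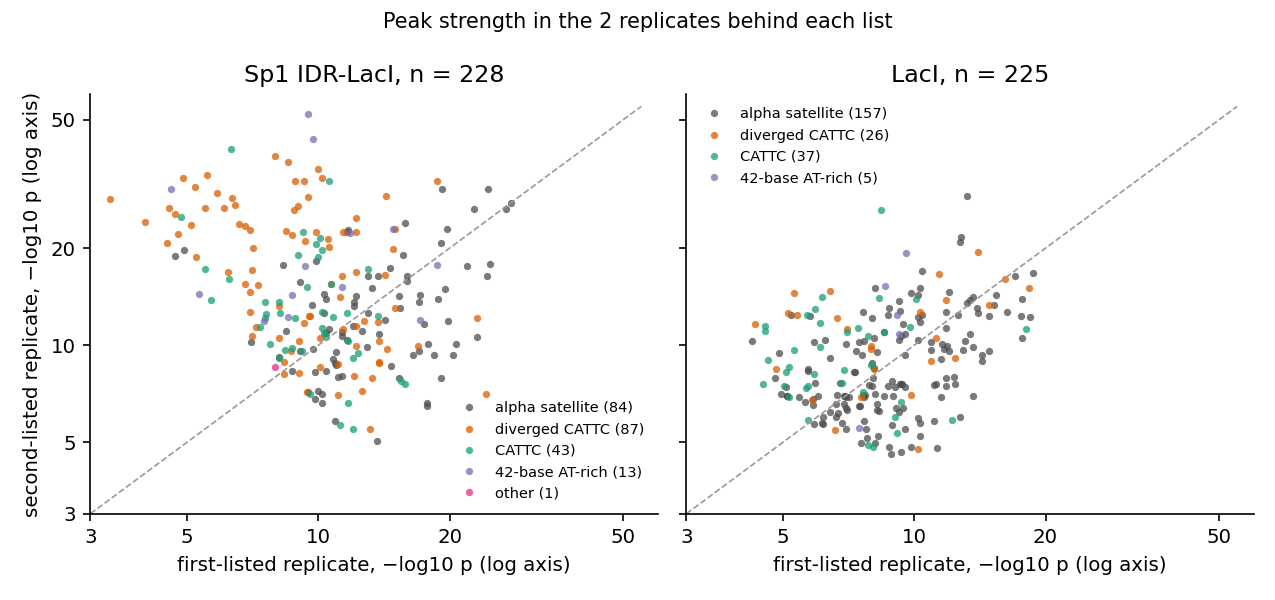
Strength of each peak (−log10 p, log axes) in the first-listed and second-listed replicate of Sp1 IDR-LacI (left) and LacI (right), coloured by repeat class, with a dashed line where they are equal. Diverged satellite (diverged CATTC) peaks of Sp1 IDR-LacI lay mostly above the line (64 of 87), and alpha satellite peaks mostly below it (33 of 84 above).

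Few peaks lay where most 31-base words occurred only once in the assembly. This measure counts words and does not show whether reads could be placed. Of Sp1 IDR-LacI, 15 peaks (6.58%) and of LacI 12 (5.33%) had fewer than 50% repeated words. All were in tandem repeats nevertheless, with self-matches of 43.8–79.8% and 43.8–74.4%. In Sp1 IDR-LacI they were 6 in CATTC, 4 in 42-base, 3 in diverged and 2 in alpha satellite, and in LacI 8 in CATTC, 2 in 42-base and 2 in alpha satellite. Another list of the series held 13 of the 15 and 9 of the 12, and 4 and 5 overlapped a peak of the other line.

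The strongest of these that both lines shared lay at chr4:51107186-51107552 in Sp1 IDR-LacI, with −log10 p of 14.6 and 17.4, and at chr4:51107170-51107556 in LacI, with 13.2 and 29.0. Its best shift put it in the alpha satellite class, with a self-match of 43.8%. Its GC content of 24.9% and median copy number of 1.00 were below the class medians of Sp1 IDR-LacI, 38.3% and 1071. There was no gene within it, and the Sp1 DBD Mutant list held it too. The peak with the highest value in a single replicate, chr4:49709324-49710192 in Sp1 IDR-LacI, had 9.47 and 52.0 and lay 1497 bp from an assembly gap in 42-base satellite. It overlapped a Sp1 WT peak. The 3 highest-ranked peaks of Sp1 IDR-LacI, at chr10:41405831-41405981 (27.6 and 27.6), chr10:40810965-40811144 (26.9 and 26.4) and chr17:25383710-25383869 (24.5 and 30.4), were all alpha satellite, and no LacI peak overlapped them. Those of LacI were at chr1:124084420-124084566 (18.7 and 16.7) and chr4:50206905-50207081 (17.0 and 16.4) in alpha satellite, and chr2:90392086-90392374 (16.1 and 16) in diverged satellite.

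A single peak of the 453 lay in an annotated gene, which was 1 of 228 for Sp1 IDR-LacI (0.439%, 0.0775–2.44%) and 0 of 225 for LacI, for which the limit set by 3 counts of the total is 1.33% and the upper Wilson bound 1.68%. It was at chr5:1327030-1327693, within CLPTM1L, a gene of a membrane protein beside the telomerase gene TERT, outside its exons and 832 bp from an annotated transcription start, so that it was also the single peak within 1000 bp of one. Neither share passed the test (Fisher's exact test, adjusted p = 1.00 for each). Its −log10 p was 7.94 and 8.55, below both medians of the list. It lay in the repeat of 29 bases shown above, with a GC content of 52.2% and a self-match of 91.6%. It was held by 11 of the other lists. These were Sp1 WT, Sp1 DBD and EWS IDR-Sp1 DBD with anti-FLAG and all 8 lists with anti-V5. With anti-FLAG it was not held by LacI, SNAP-NLS, Sp1 DBD Mutant or CTRL. The lists of the CTCF DNA binding domain, alone or fused to the disordered region of Sp1, also lacked it. The LacI peak nearest to a transcription start was 9.15 kb from it, and the median distances were 155 kb for Sp1 IDR-LacI and 841 kb for LacI, against 0.129 kb for Sp1 WT. In the other comparison lists they were 96.1 kb for CTRL, 628 kb for SNAP-NLS and 633 kb for Sp1 DBD Mutant. CTRL, without a transgene, thus lay nearer to starts than Sp1 IDR-LacI by this median.

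Loci named by rule gave no further peaks. Within 10 kb of SP1, of PPP1R12C, which holds the AAVS1 site, of the U1, U2 and 5S RNA genes, of the 45S ribosomal RNA genes and of 443 tRNA genes, both lists had 0 peaks, which allows up to 1.32% and 1.33%. Of the 5151 Sp1 WT peaks, 49 were near tRNA genes and 19 near 5S RNA genes. Both are smaller shares than those limits, so the counts of 0 do not set the lists apart from Sp1 WT. Near the DUX4 family, Sp1 IDR-LacI had 0 and LacI had 1 peak, at chrY:11297479-11298024, in CATTC satellite 8894 bp from DUX4L16.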

How the data were processed

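Per the labels, the authors used Cutadapt 2.6 for trimming, Bowtie2 2.3.5.1 for alignment (build hg38), SAMtools 1.9, bedtools 2.27.1, deepTools 3.5.4 and MACS3, given as 2.2.7.1. Duplicates were removed, peaks of each replicate were called against merged controls, and IDR was run on each pair of replicates. A published blacklist was used for their coverage tracks. It is not stated for the peaks. The deposited −log10 p-values are the authors', for each merged peak and replicate, and the deposited score used here is −log10 of the global IDR. The 6 tables of the authors' own comparisons were not used.

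Peaks of chr1 to chr22, X, Y and the scaffolds were annotated with hg38 and GENCODE 44 in Python 3.11.15 (NumPy 2.4.6, SciPy 1.17.1, pysam 0.24.0), with overlaps of at least 1 bp checked against bedtools 2.31.1 (0 of 36 counts differed) and functions tested on simulated data. Fisher's exact tests had a threshold of 0.05 with Benjamini-Hochberg adjustment, and 95% Wilson intervals cover counting error over peaks. Blocks of alpha satellite were runs of 10 kb bins with a self-match of at least 45%. tRNA genes came from RefSeq. Peaks named are those not in repeated sequence, at exons or coding starts, the 3 highest-ranked of each list, the 6 most recurring regions (with 1 more that tied with the last) and fixed loci. The members and lists were chosen with earlier results of these data known.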

Additional observations from a re-analysis of the deposited data

How the results depend on the processing

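Differences in shares are given as Sp1 IDR-LacI minus LacI in percentage points. With peaks within 10 kb merged, the difference in the share within 100 kb of an assembly gap was 10.1 points and its call was lost, and within 1 Mb of a gap it was 2.49 points, without a call. The difference in repeated sequence gained a call at 90% repeated words (-10.7 points) and with words that occur more than 10 times (-12.9 points), and that in alpha satellite-like sequence gained one at a 40% limit (-24.9 points). At the main limit of 50%, the difference in alpha satellite-like sequence was -1.85 points with merged peaks, without a call. The number of chromosomes called fell from 4 to 0 with merged peaks, where fewer units were tested. The overlap of the lists, as a share of Sp1 IDR-LacI, was 36.0% with merged peaks, 14.4% without CTRL and SNAP-NLS peaks and 51.8% with midpoints within 10 kb, and as a share of LacI it was 13.9% without those peaks and 42.7% with midpoints. Of 65 alternatives, 54 kept the side of the threshold or moved the value by less than its interval. Among them, the difference in overlap with CTRL or SNAP-NLS changed sign when Sp1 DBD Mutant was added, from 3.04 to -0.129 points, without a call in either. Taking the coordinates of either replicate alone changed no call. Removing the chromosome 1 cluster was chosen after seeing the data and changed no call. At an IDR of 0.05, all 228 Sp1 IDR-LacI peaks and 0 LacI peaks were left, so no comparison could be made. No paired analysis was possible because the values given for each replicate are not tied to the labelled replicate numbers, and the shares come from lists made from both replicates.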
